A study of Mus musculus with 64 samples.

Results

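The question addressed was whether the brain transcriptome of Cyfip2+/R87C knock-in (KI) mice differed from that of wild-type (WT) littermates in the same way in the frontal cortex and in the hippocampus at postnatal week (PWK) 28. The comparison drew on 16 of the 64 RNA-seq libraries of the series: 4 from KI and 4 from WT mice for each of the frontal cortex and the hippocampus. All mice were on the C57BL/6N background, and the KI mice carried the Arg87Cys codon in 1 copy of Cyfip2 in the germline, so that every cell of the brain carried it. The labels name no treatment for either genotype. Cortical and hippocampal libraries of a genotype that share a replicate number were taken as 1 mouse, which the labels do not state. For each gene, the KI effect is the difference between KI and WT mice on the scale log2(normalized read count + 1), and the interaction is the KI effect in hippocampus minus the KI effect in cortex. It was tested for 18413 of the 18432 genes in the table with limma, with the mouse as a block. The values are read counts that the authors normalized, the ± after a log2 value is its standard error (SE), n is 4 mice per genotype and region throughout, and p is two-sided and adjusted by the Benjamini-Hochberg method over all genes tested. Coordinates refer to GRCm38. The sources used here do not say whether the 4 mice of a group came from different litters.

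Cyfip2 encodes a subunit of the WAVE regulatory complex, which links the small GTPase Rac to the assembly of branched actin and so to the shape of dendritic spines. The Arg87Cys change is the mouse form of a recurrent variant of West syndrome, an infantile epilepsy. The frontal cortex is built of layered excitatory neurons and diverse interneurons, whereas the hippocampus is built of pyramidal cells of the CA fields and granule cells of the dentate gyrus. Both are prone to seizures, after which activity-dependent genes, neuropeptides and glial genes are known to change.

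The libraries matched their labelled regions. Over the 6 cortical markers (Cux2, Rorb, Tbr1, Fezf2, Lhx2 and Lamp5), the summed level was 10741 to 17528 in cortical libraries and 5339.5 to 6406.5 in hippocampal libraries, and over the 7 hippocampal markers it was 30548 to 34138 in hippocampus and 9311 to 12491 in cortex. One of the 6 cortical markers, Fezf2, did not separate the WT regions, at 814 to 1064 in cortex and 961 to 1044 in hippocampus. The normalized totals of the 16 libraries were between 29.9 and 32.6 M. The summed level of 6 choroid plexus markers varied widely in hippocampus, from 37107 to 126313 in WT and from 61193 to 104918 in KI mice. Its part in the hippocampal results was not tested. Among the cortical libraries, 1 stood apart. In cortical WT replicate 2 the same sum was 21740, against 365 to 1091 in the other 7 cortical libraries. Without this mouse the number of genes with a significant interaction was 721 instead of 1259. That lies within the 652 to 869 found on leaving out any 1 mouse but KI replicate 2. The cortex of KI replicate 2 lay nearest to WT in most cortex-only genes, as described with the classes. Since the mutation replaces a codon and leaves the gene in place, the level of Cyfip2 does not check the genotype labels.

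The KI effect differed between the regions for 1259 of 18413 genes (6.84%). It was more positive in hippocampus for 649 genes (3.52%) and more positive in cortex for 610 genes (3.31%). Without the mouse as a block, 841 genes had a significant interaction, 792 of them among the 1259. Same-numbered libraries of the 2 regions deviated together in KI mice (r of 0.25 to 0.45) but not in WT mice (r of -0.068 to 0.015). Differently numbered libraries of KI mice had r of -0.35 to 0.24, which nearly reaches the lowest same-numbered values. The correlations therefore do not settle that equal numbers mark 1 mouse. Within cortex, 2236 genes were higher (12.2%) and 1845 were lower (10%) in KI mice, and within hippocampus 1640 were higher (8.92%) and 1271 lower (6.91%). Under total-sum scaling, the share of higher genes among those called fell from 54.8% to 43.7% in cortex and from 56.3% to 40.6% in hippocampus. The median absolute KI effect over all genes was 0.22 in cortex and 0.16 in hippocampus. The within-region tests are not independent of each other where the regions come from the same mice. Of the genes tested in both regions, 1456 were called in both, which is 35.7% of the cortical and 50.1% of the hippocampal calls, and 1400 of these had the same direction. A call in one region alone was a poor guide to a regional difference: of 2623 genes called in cortex but not in hippocampus, 678 (25.8%) had a significant interaction, and of 1450 genes called in hippocampus but not in cortex, 231 (15.9%) had one.

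Genes with a significant interaction were divided by their within-region tests. A cortex-only gene was called in cortex and had an unadjusted p of at least 0.05 in hippocampus, and a hippocampus-only gene was the reverse. There were 552 cortex-only genes, of which 300 were higher and 252 lower in KI cortex, and 182 hippocampus-only genes, of which 134 were higher and 48 lower in KI hippocampus. For 346 of the cortex-only genes and 71 of the hippocampus-only genes, the 95% confidence interval of the effect in the other region also lay within ±0.32 on the log2 scale. A further 56 genes changed in opposite directions, 35 being lower in cortex and higher in hippocampus and 21 the reverse. Another 158 changed in the same direction with unequal size, 146 of them more in cortex and 12 more in hippocampus. Of the rest, 134 were called in neither region, 126 were called in cortex and 49 in hippocampus with an unclear effect in the other region, and 2 were too weakly expressed to be tested in cortex. The share of higher genes among the hippocampus-only genes was 73.6%, and it was 62.9% (112 of 178) after correction for GC content and gene length. Genes named below by class or by smallest p had to show no overlap of KI and WT libraries in the responding region. Their separation there was thus set by the naming rule. Over all genes tested, 25.8% had no overlap in cortex and 21.5% in hippocampus. In the plot of cortical against hippocampal effects, the cortex-only genes spread along the horizontal axis and the hippocampus-only genes along the vertical axis.

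**Figure D1:**
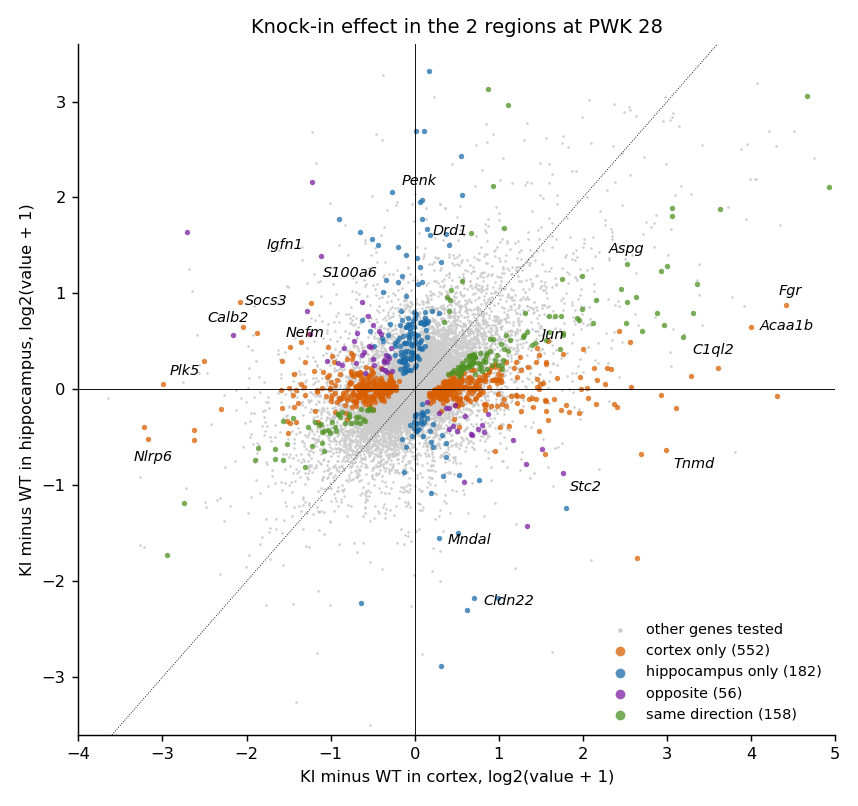
KI effect (KI minus WT, log2 of normalized read count + 1) in cortex (horizontal axis) and hippocampus (vertical axis) at PWK 28, 1 point per gene, coloured by response class. The 552 cortex-only genes lie along the horizontal and the 182 hippocampus-only genes along the vertical axis, the 56 opposite genes lie in the upper left and lower right, and 19 genes fall outside the axes.

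The KI cortices lay at unequal distances from WT in the cortex-only class. In 364 of the 552 cortex-only genes (65.9%), KI replicate 2 had the cortical value nearest to the WT mean, and it did so in 41 of the 56 opposite genes (73.2%). The same share over all genes was not computed, so a trait of these classes cannot be told apart from one of the mouse. Among the 182 hippocampus-only genes the nearest KI hippocampus was replicate 1 in 17, replicate 2 in 56, replicate 3 in 61 and replicate 4 in 48 genes. Without KI replicate 2, the interaction was significant for 1874 genes and 876 were cortex-only. Without any 1 of the other mice, 652 to 869 genes had a significant interaction. In bulk tissue, fewer cells of a type and less RNA per cell cannot be told apart.

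The edited gene itself was a cortex-only gene. Cyfip2 (chromosome 11, 46193850 to 46312859, minus strand) was at 34022, 35187, 35279 and 34418 normalized counts in WT cortex and at 21597, 30055, 26765 and 24490.4 in KI cortex, with no overlap. In hippocampus the WT mice were at 26732, 29266, 26842 and 27601 and the KI mice at 24732, 26689.9, 29612 and 26419.5, and the genotypes overlapped. The KI effect was -0.44 ± 0.087 in cortex and -0.042 ± 0.056 in hippocampus, and the regions differed by 0.40 ± 0.080 (limma, adjusted p = 0.0149). The 95% confidence interval of the hippocampal effect was -0.16 to 0.081. Cyfip2 was the only one of 11 genes of the WAVE complex and Rac list with a significant interaction, against 6.84% of all genes. The other members, including the scaffold Nckap1 and the paralog Cyfip1, had none. Cyfip2 overlaps Fndc9 on the opposite strand.

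Among the genes named by the selection rule, the smallest interaction p belonged to Nefm (chromosome 14, 68082590 to 68124846), which encodes the medium subunit of the neurofilaments that fill large axons. Nefm was at 5959, 7093, 7042 and 6194 in WT and 3681, 4042, 3131 and 3779 in KI cortex, and at 4414, 4902, 4268 and 4451 in WT and 6128, 6743, 5739 and 5793 in KI hippocampus. The genotypes separated in both regions but in opposite directions, with a KI effect of -0.85 ± 0.087 in cortex and 0.44 ± 0.061 in hippocampus (interaction 1.28 ± 0.078, adjusted p = 6.50e-05). Nefl, the light subunit, was at 12635, 14354, 13860.2 and 13203 in WT and 9668, 10636, 7591 and 7956 in KI cortex. In hippocampus Nefl ranged from 13963 to 16114 in WT and from 14209 to 15783 in KI mice, so that it separated in cortex and overlapped in hippocampus (-0.60 ± 0.10 and 0.015 ± 0.053, interaction adjusted p = 0.00453). Synpo (chromosome 18, 60593973 to 60660142) encodes synaptopodin, an actin-associated protein of the spine apparatus. It was at 7785, 8017, 8155 and 8082 in WT and 3954, 5284, 4801 and 3680.1 in KI cortex, and at 5043, 5103, 4985 and 4817 in WT and 4317, 5169, 5368 and 3974 in KI hippocampus. The cortical values did not overlap and the hippocampal values did (-0.87 ± 0.10 and -0.094 ± 0.085, interaction adjusted p = 3.44e-04). The other genes in this group were Mapk4, an atypical MAP kinase (-1.04 ± 0.13 in cortex, 0.29 ± 0.067 in hippocampus), and Necab3, a neuronal calcium-binding protein (-0.62 ± 0.19 and 0.92 ± 0.11). Tmem198 (-0.61 ± 0.080 and 0.25 ± 0.077) and Tsnax, a partner of the RNA-binding protein translin (-0.58 ± 0.054 and 0.11 ± 0.050), completed it. The Nefm and Nefl gene models overlap on opposite strands. The interaction adjusted p of Mapk4, Necab3, Tmem198 and Tsnax lay between 3.51e-04 and 4.32e-04.

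Among the genes that were lower in KI cortex only and met the naming rule, Plk5 (chromosome 10, 80356459 to 80365489) had the largest interaction. It encodes a polo-like kinase of neurons and glia. Plk5 was at 399, 440.1, 334 and 385 in WT cortex and at 41.1, 103, 38.3 and 31.6 in KI cortex. In hippocampus it was at 436, 474, 468 and 475 in WT and 363, 554, 389 and 679 in KI mice, and the genotypes overlapped. The cortical effect was -2.996 ± 0.31 and the hippocampal effect 0.052 ± 0.17 (interaction 3.05 ± 0.32, adjusted p = 8.86e-04). As the naming rule required, even the highest KI cortex, replicate 2, lay below every WT cortex. The rule also named Dnah11, an axonemal dynein heavy chain (-3.22 ± 0.72 in cortex and -0.39 ± 0.35 in hippocampus), and Nlrp6, an innate immune sensor (-3.18 ± 0.47 and -0.52 ± 0.26). Rnd1, an atypical small GTPase that loosens actin stress fibres, fell by 1.44 in cortex and had a hippocampal effect of 0.16 ± 0.14. Cdkn1c, the imprinted cyclin-dependent kinase inhibitor p57, fell by 1.30 in cortex with a hippocampal effect of 0.28 ± 0.24, and Six4, a homeobox transcription factor, fell by 1.59 with a hippocampal effect of -0.0090 ± 0.16. Interaction adjusted p of these 5 genes lay between 0.00784 and 0.0168. Without the mouse block, the interaction was not significant for Dnah11 (adjusted p = 0.0806). The call was lost for Cdkn1c without KI replicates 1 and 4 or WT replicate 1 (adjusted p up to 0.0539). The median KI effect of the 252 genes was -0.61 in cortex and 0.0098 in hippocampus.

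The 300 genes that were higher in KI cortex only had a median effect of 0.55 in cortex and 0.0045 in hippocampus. Card10 (chromosome 15, 78775138 to 78803042), a scaffold protein upstream of NF-kB, showed the pattern at a level well above background. It was at 163, 116, 148 and 200.3 in WT cortex and 1193, 383, 853 and 777 in KI cortex, and at 279, 268, 271 and 245 in WT and 269, 298, 265 and 276 in KI hippocampus. All cortical KI values lay above the WT values, as the naming rule required. The hippocampal values overlapped within a narrow range (2.26 ± 0.30 in cortex and 0.058 ± 0.087 in hippocampus, interaction adjusted p = 0.00446). Tnmd, a transmembrane protein best known from tendon, had effects of 2.99 ± 0.52 in cortex and -0.63 ± 0.47 in hippocampus. Fgr, a Src-family kinase of myeloid cells, had effects of 4.41 ± 0.52 and 0.88 ± 0.47, from 2.29 to 4.92 normalized counts in WT and 26.8 to 170.4 in KI cortex. Acaa1b, a peroxisomal thiolase of fatty acid oxidation, was at 9.83 to 12.9 in WT and 150.4 to 295 in KI cortex, and its effects were 3.99 ± 0.25 and 0.65 ± 0.52. The hippocampal interval of Fgr (-0.16 to 1.91) and that of Acaa1b (-0.48 to 1.79) were wide, so that a change there was not detected but a sizeable one lay within the interval. Fam92b (2.36 ± 0.42 and -0.16 ± 0.33) and Mafa, a Maf-family transcription factor (2.34 ± 0.25 and 0.21 ± 0.19), were the other genes named, and the interaction adjusted p of these 5 genes lay between 0.00254 and 0.0156. Acaa1b overlaps Dlec1, and Dnah11 overlaps Cdca7l, on the opposite strand.

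Among the genes that were higher in KI hippocampus only and met the naming rule, Penk (chromosome 4, 4133531 to 4138819) had the largest interaction. It encodes proenkephalin, the precursor of the opioid peptides Met- and Leu-enkephalin. Penk was at 774, 514, 440.3 and 486 in WT hippocampus and at 2312, 2039.9, 2291 and 2362 in KI hippocampus. In cortex it was at 2311, 1975, 1409 and 2024 in WT and 1972, 1613, 949 and 2064 in KI mice. The hippocampal genotypes were far apart and the cortical genotypes overlapped (2.05 ± 0.14 in hippocampus, -0.27 ± 0.23 in cortex, interaction 2.32 ± 0.21, adjusted p = 4.32e-04), and the KI hippocampus reached the level of the WT cortex. Drd1 (chromosome 13, 54051183 to 54055705), the D1 dopamine receptor, followed the same pattern. It was at 156, 92.7, 99.2 and 128 in WT and 378, 458, 349 and 431 in KI hippocampus, and at 591, 502, 403 and 437 in WT and 476, 508, 516 and 533 in KI cortex. The effects were 1.78 ± 0.16 in hippocampus and 0.088 ± 0.12 in cortex (interaction adjusted p = 4.32e-04). Penk and Drd1 are both abundant in striatum. The summed level of the 7 striatal markers, of which Drd1 is one, was 3653 to 3980 in WT and 3317 to 3682 in KI hippocampus, with overlap. In cortex the sum was higher, at 6145 to 9687 in WT and 5038 to 7134 in KI mice, also with overlap. The part of striatal tissue in the levels of Penk and Drd1 in either region was not tested.

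Klk6, a secreted serine protease of oligodendrocytes and neurons, had effects of 1.56 ± 0.34 in hippocampus and -0.51 ± 0.24 in cortex. Cacna2d4, an auxiliary subunit of voltage-gated calcium channels, had effects of 1.51 ± 0.31 and -0.44 ± 0.40, and Ccn4, a secreted matricellular target of Wnt signalling, of 2.44 ± 0.31 and 0.55 ± 0.42. Lemd1, which shares its strand and sequence with an overlapping gene model and is therefore uncertain, had effects of 1.64 ± 0.31 and -0.65 ± 0.38. The interaction adjusted p of these 4 genes lay between 0.00256 and 0.0213. In the fit without the block, the call was lost for Cacna2d4 (adjusted p = 0.0537) and Ccn4 (adjusted p = 0.0732). Leaving out 1 mouse removed the call of Lemd1 without KI replicate 4 or WT replicates 1 and 3 (adjusted p up to 0.0641). Over the whole class of 134 genes, the median effect was 0.57 in hippocampus and -0.061 in cortex.

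The 48 genes that were lower in KI hippocampus only had a median effect of -0.43 in hippocampus and 0.092 in cortex. Mndal, a member of the interferon-inducible IFI200 family, was at 116, 148, 151 and 183 in WT and 64.1, 44.1, 49.96 and 43.0 in KI hippocampus, and at 26.7, 16.2, 17.8 and 20.7 in WT and 32.1, 13.5, 28.3 and 29.6 in KI cortex. Its hippocampal values separated and its cortical values overlapped (-1.55 ± 0.18 and 0.29 ± 0.32), but it shares its strand with the related genes Ifi211 and Ifi203 and its counts are uncertain. Cldn22, a claudin, had effects of -2.18 ± 0.35 in hippocampus and 0.71 ± 0.42 in cortex, and Frem3, an extracellular matrix protein, of -1.50 ± 0.23 and 0.51 ± 0.46. In WT cortex Cldn22 was at only 3.12 to 9.60 and Frem3 at 2.93 to 7.68, so a fall there could hardly have been seen. Il20rb, a cytokine receptor chain (-0.95 ± 0.18 and 0.77 ± 0.37), and Npbwr1, a receptor of neuropeptides B and W (-0.90 ± 0.19 and 0.53 ± 0.28), were also named. The positive effects in cortex, though not called, add to the interactions of the genes named here. The interaction adjusted p of these 5 genes lay between 0.00829 and 0.0202. Prkcd, a protein kinase C isoform and the one thalamic marker of 4 with a significant interaction, was at 953, 1130.2, 877 and 1007 in WT and 577, 560.1, 496 and 548 in KI hippocampus, without overlap, and overlapped in cortex (-0.86 ± 0.085 and -0.13 ± 0.16, interaction adjusted p = 0.0408). The summed level of the 4 thalamic markers, of which Prkcd is one, was 2587 to 3016 in WT and 2040 to 2350 in KI hippocampus, without overlap. The part of thalamic tissue in this result was not tested. Calls that depended on single mice were those of Cldn22 without KI replicate 4 or WT replicate 4 (adjusted p up to 0.0595), Frem3 without KI replicate 3 or WT replicate 1 (adjusted p up to 0.0563) and Prkcd in 5 of the 8 fits that left out 1 mouse (adjusted p up to 0.108).

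Opposite directions in the 2 regions were found for 56 genes. Stard8 (chromosome X, 99003248 to 99074728), which encodes a GTPase-activating protein of the actin cytoskeleton, was at 1824, 1512, 1894 and 1916 in WT and 1035, 1321, 1287 and 1206 in KI cortex, and at 305, 292, 295 and 308 in WT and 612, 453, 440.3 and 565 in KI hippocampus. As the naming rule required, the genotypes did not overlap in either region. The KI values lay below WT in cortex and above WT in hippocampus (-0.56 ± 0.098 and 0.77 ± 0.11, interaction adjusted p = 0.00184). Stc2 (chromosome 11, 31357307 to 31370074), a secreted glycoprotein induced by cellular stress, went the other way. It was at 28.2, 25.6, 26.5 and 39.3 in WT and 129, 67.3, 177 and 70.5 in KI cortex, and at 186, 178, 177 and 156 in WT and 84.9, 91.4, 95.9 and 108 in KI hippocampus. Its WT level was lower in cortex than in hippocampus, and the KI effects (1.76 ± 0.31 and -0.87 ± 0.12) brought the regions together. Igfn1, an immunoglobulin and fibronectin domain protein, was lower in cortex and higher in hippocampus (-1.12 ± 0.26 and 1.39 ± 0.27), as was H2-T23, a non-classical MHC class I gene whose reads may be shared with its family (-0.69 ± 0.19 and 0.59 ± 0.15). Trim71, an RNA-binding ubiquitin ligase (1.51 ± 0.36 and -0.62 ± 0.18), and Cyp26b1, which degrades retinoic acid (1.17 ± 0.24 and -0.52 ± 0.15), were higher in cortex and lower in hippocampus. The interaction adjusted p of the 6 genes lay between 0.00184 and 0.00848. Under total-sum scaling, 30 of 61 opposite genes were higher in cortex, against 21 of 56 here.

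**Figure D2:**
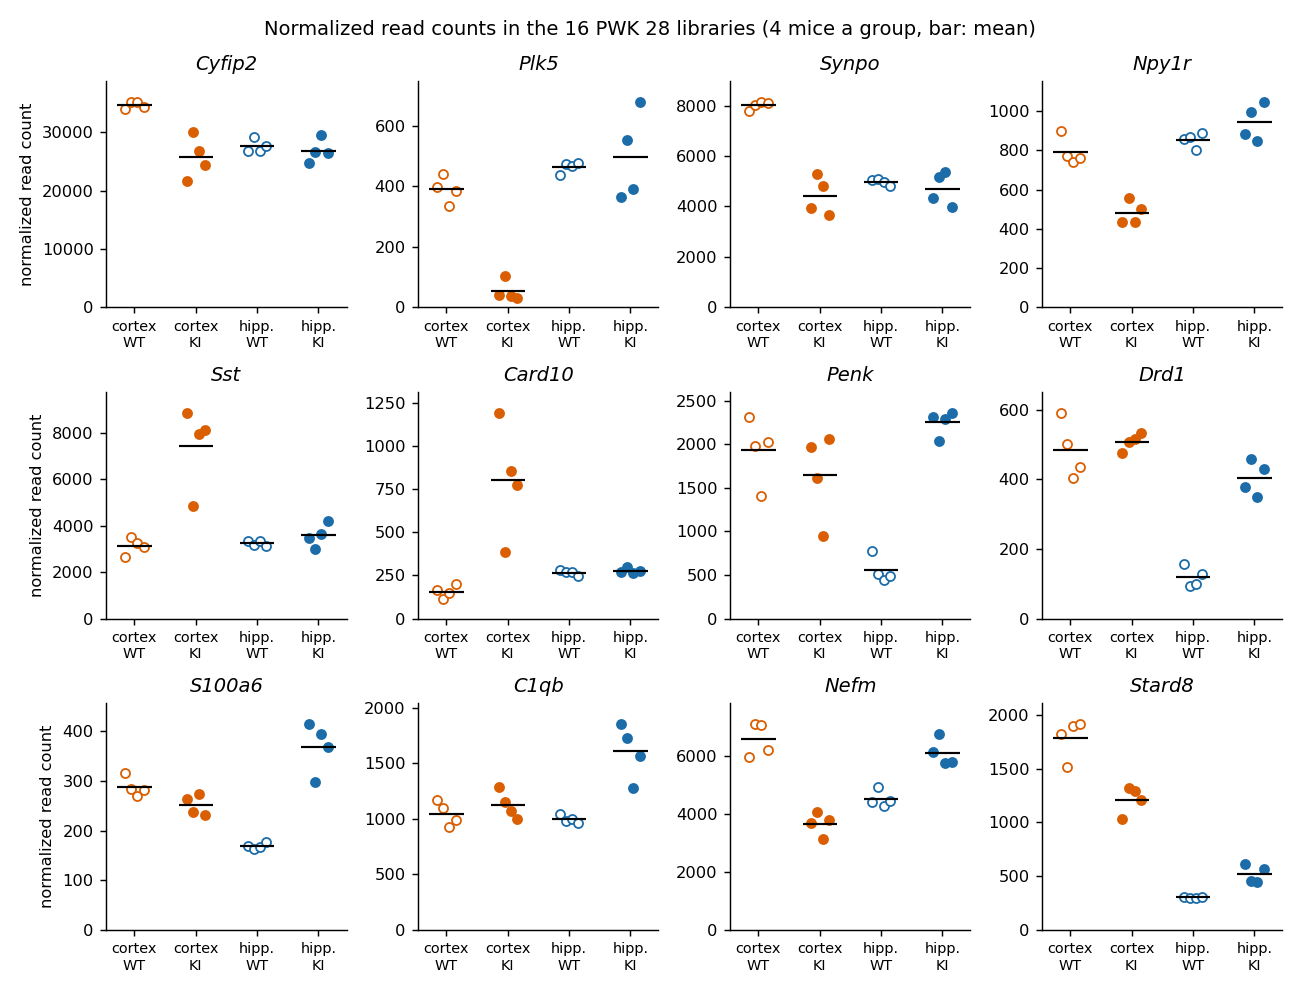
Normalized read counts of 12 genes in each of the 16 libraries at PWK 28, with WT and KI mice of cortex and hippocampus side by side; points are mice and bars are group means. Cyfip2, Plk5, Synpo, Npy1r, Sst and Card10 separate by genotype in cortex, Penk, Drd1, S100a6 and C1qb in hippocampus, and Nefm and Stard8 in both regions in opposite directions.

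Functions were then described with 55 lists of genes, as counts and medians beside those of all genes tested, whose median effect was -0.0034 in cortex and 0.0037 in hippocampus. The neuropeptides split between the regions. Of 19 measured neuropeptide genes, 9 were higher and 4 lower in KI cortex (median 0.63), and 6 were higher and 3 lower in KI hippocampus (median 0.16). The interaction was significant for 4, Penk, Sst, Cck and Vip. Sst, the somatostatin precursor of dendrite-targeting interneurons, was at 2667, 3534, 3248 and 3076 in WT and 8861, 4853, 7931 and 8108 in KI cortex, and at 3336, 3174, 3328 and 3135 in WT and 3476, 2977, 3651 and 4216 in KI hippocampus. It rose in cortex and its hippocampal values overlapped (1.22 ± 0.17 and 0.13 ± 0.086, interaction adjusted p = 0.00174). Vip, made by interneurons that inhibit other interneurons, was at 1979, 1642, 1786 and 1777 in WT and 1112, 1297, 1019 and 1112 in KI cortex. In hippocampus Vip was at 513, 563, 513 and 605 in WT and 490.4, 529, 514 and 583 in KI mice. It fell in cortex only (-0.66 ± 0.085 and -0.050 ± 0.082, interaction adjusted p = 0.0120). Cck, the cholecystokinin precursor, was at 5345, 7147, 7278 and 6449.5 in WT and 15708, 7961, 13205 and 12307 in KI cortex, and at 3912, 4809.9, 3999 and 4338 in WT and 3506, 3486, 3318 and 3969 in KI hippocampus. It rose in cortex and fell in hippocampus (0.88 ± 0.18 and -0.25 ± 0.073, interaction adjusted p = 0.00532), and cortical KI replicate 2 was the lowest of the KI mice for both Sst and Cck.

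The promoters of Sst, Cck and Vip, the neuropeptide genes called in cortex that also had an interaction, are shown. Neuropeptide genes are classic targets of CREB, a factor activated by calcium and cAMP in active neurons. Its binding motif is the cAMP response element, TGACGTCA, and its shorter core is TGACG. Both strands were searched from 250 bases before to 50 bases after the start of each RefSeq gene (GRCm38.p6). The full element was found in 588 of 32851 promoters (1.79%) and the core, which the full element contains, in 6837 (20.8%). Of the 19 neuropeptide genes, 16 had an entry, 2 of them with the full element (Cartpt and Sst) and 10 with the core. The core was absent from Nmb, Npy, Nucb2, Pdyn, Rln1 and Tac2. Any part of these motifs in the cortical changes was not tested. Sst, on the minus strand, holds the full element with its first base at -48. Cck, on the minus strand, and Vip, on the plus strand, hold 1 core each, at -47 and -79. Positions are relative to the start, -1 being the base before it, and the capitals mark the cores on either strand, which join to the full element in Sst. Cck and Vip, which changed in opposite directions in cortex, thus both hold the core without the full element. The 3 promoters span chr16:23890795-23891094 (Sst), chr9:121495645-121495944 (Cck) and chr10:5638968-5639267 (Vip).
Sst: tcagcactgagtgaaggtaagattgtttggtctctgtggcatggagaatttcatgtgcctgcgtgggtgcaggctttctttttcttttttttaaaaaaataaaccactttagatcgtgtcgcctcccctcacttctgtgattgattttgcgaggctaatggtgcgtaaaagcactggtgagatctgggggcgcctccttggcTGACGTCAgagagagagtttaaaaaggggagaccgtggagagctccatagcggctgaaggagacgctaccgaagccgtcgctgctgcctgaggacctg
Cck: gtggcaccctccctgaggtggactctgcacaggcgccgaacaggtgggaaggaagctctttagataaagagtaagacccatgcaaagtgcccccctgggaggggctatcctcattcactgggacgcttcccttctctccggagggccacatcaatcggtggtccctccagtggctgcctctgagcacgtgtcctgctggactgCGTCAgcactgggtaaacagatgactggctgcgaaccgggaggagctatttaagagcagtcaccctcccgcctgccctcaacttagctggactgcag
Vip: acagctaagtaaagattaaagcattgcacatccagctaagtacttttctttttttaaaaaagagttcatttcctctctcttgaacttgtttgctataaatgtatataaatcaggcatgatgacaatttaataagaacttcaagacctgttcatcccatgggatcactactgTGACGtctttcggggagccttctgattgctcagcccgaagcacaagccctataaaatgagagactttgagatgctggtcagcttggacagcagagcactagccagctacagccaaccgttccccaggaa

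Of 39 receptors of neuropeptides and monoamines, 7 were higher and 9 lower in KI cortex, 6 were higher and 7 lower in KI hippocampus, and 6 had a significant interaction, 5 of them more positive in hippocampus. Npy1r (chromosome 8, 66697192 to 66706792), the Y1 receptor of neuropeptide Y, was at 901, 771, 742 and 760.2 in WT and 435, 559, 435 and 499 in KI cortex, and at 857, 866, 801 and 888 in WT and 882, 996, 847 and 1048 in KI hippocampus. It fell in cortex without overlap, and overlapped in hippocampus (-0.72 ± 0.10 and 0.14 ± 0.076, interaction adjusted p = 9.70e-04). Oprk1, the kappa opioid receptor, also fell in cortex only (-1.1997 ± 0.36 and 0.19 ± 0.23). Crhr1, the receptor of corticotropin-releasing hormone, fell in both regions but more in cortex (-1.52 ± 0.17 and -0.57 ± 0.13). Without the mouse block, the interaction was not significant for Oprk1 (adjusted p = 0.103).

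Immediate early genes, which neurons switch on within minutes of firing, were in part lower in KI cortex. Of 18 immediate early transcription factors, 1 was higher and 4 were lower in cortex (median -0.53), and 1 was higher and 1 lower in hippocampus (median -0.0047). The interaction was significant for 6, of which 5 were more positive in hippocampus. Egr3 was at 10169, 9409, 11957 and 9989 in WT and 6357, 5071, 7305 and 1913 in KI cortex, and at 3579, 4191, 3622 and 3872 in WT and 4736, 4301, 5235 and 1914 in KI hippocampus. KI replicate 4 was the lowest KI mouse in both regions. The effects of Egr3 were -1.17 ± 0.33 in cortex and -0.011 ± 0.25 in hippocampus, and its interaction was significant with the mouse as a block (adjusted p = 9.70e-04) but not without the block (adjusted p = 0.185). The same held for Nr4a3 (-1.75 ± 0.34 and -0.78 ± 0.26, adjusted p = 0.00446 with and 0.286 without the block) and for Fosb (-0.89 ± 0.63 and 0.048 ± 0.57, adjusted p = 0.0110 with and 0.673 without it). Jun rose in both regions and more in cortex (1.40 ± 0.15 and 0.46 ± 0.075, adjusted p = 0.00249). Of 20 activity-induced effector genes, 8 were higher and 1 lower in cortex, 9 were higher and 1 lower in hippocampus, and 4 had an interaction, each more positive in hippocampus. They were Rgs4, a brake on G-protein signalling (0.38 ± 0.14 and 0.95 ± 0.094), Pcsk1, a convertase that cuts peptide precursors (-1.66 ± 0.14 and -0.73 ± 0.18), the MAP kinase phosphatase Dusp4 (-0.59 ± 0.22 and 0.077 ± 0.21), and Arc, which acts in AMPA receptor endocytosis (-1.37 ± 0.54 and -0.91 ± 0.52). In the fit without the block, the call was lost for Rgs4 (adjusted p = 0.0959), Dusp4 (adjusted p = 0.300) and Arc (adjusted p = 0.846). Leaving out 1 mouse removed the call of Dusp4 in 5 of the 8 fits that left out 1 mouse (adjusted p up to 0.0808) and Arc in 6 of the 8 fits that left out 1 mouse (adjusted p up to 0.112).

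Ion channels and transmitter receptors differed by region gene by gene. Of 53 potassium channel genes, 14 were higher and 13 lower in cortex, 9 were higher and 11 lower in hippocampus, and 17 had a significant interaction, 9 more positive in hippocampus and 8 more positive in cortex. Kcnh4, an ether-a-go-go type channel, fell in cortex and rose in hippocampus (-1.24 ± 0.20 and 0.57 ± 0.17, adjusted p = 0.00202). Kcnn2, the calcium-activated channel SK2, fell in cortex only (-0.40 ± 0.066 and 0.12 ± 0.062), Kcnk1, a 2-pore leak channel, rose in hippocampus only (0.40 ± 0.069, and -0.11 ± 0.068 in cortex), and Kcnh1 rose in both regions and more in cortex (0.78 ± 0.061 and 0.23 ± 0.068). Of 18 ionotropic glutamate receptor genes, 4 had an interaction. Grin3a, an NMDA receptor subunit, rose in cortex only (1.198 ± 0.16 and -0.056 ± 0.082, adjusted p = 0.00256), although it shares its strand with the overlapping gene Ppp3r2. Gria3, an AMPA receptor subunit, fell in cortex only (-0.42 ± 0.064 and 0.043 ± 0.045), and Grik4, a kainate receptor subunit, rose there (0.63 ± 0.11 and 0.065 ± 0.062). Grm2, a presynaptic metabotropic receptor, fell in cortex only (-1.32 ± 0.25 and 0.022 ± 0.069, adjusted p = 0.0101). Gabbr2, a GABA-B receptor subunit, rose in cortex only (0.40 ± 0.056 and 0.0035 ± 0.040, adjusted p = 0.00370), as did Gabrg3 (0.68 ± 0.17 and 0.013 ± 0.074). Of 14 sodium and HCN channel genes none had an interaction in limma's test, and of 15 calcium channel genes 2 had one, against 6.84% of all genes. The interaction of Gabrg3 (adjusted p = 0.0740) was not significant without the block. Calls that depended on single mice were those of Grik4 in 7 of the 8 fits that left out 1 mouse (adjusted p up to 0.0966) and Gabrg3 in 7 of the 8 fits that left out 1 mouse (adjusted p up to 0.104).

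Presynaptic genes changed in both directions in both regions, and postsynaptic scaffold genes were lower mainly in cortex. Of 33 genes of the synaptic vesicle and release, 15 were higher and 8 lower in cortex, 12 were higher and 7 lower in hippocampus, and 9 had an interaction. Syn2, a synapsin that tethers vesicles, rose in both regions and more in cortex (1.03 ± 0.097 and 0.21 ± 0.049, adjusted p = 0.00231), whereas Syn3 rose in both and more in hippocampus (0.43 ± 0.087 and 1.03 ± 0.099, adjusted p = 0.0114). Slc17a7, the vesicular glutamate transporter VGLUT1, rose in both and more in cortex (0.89 ± 0.098 and 0.40 ± 0.050). Pclo, the active zone scaffold piccolo, rose in cortex only (0.39 ± 0.051 and -0.051 ± 0.049). Of 27 postsynaptic scaffold genes, 1 was higher and 11 lower in cortex, 1 was higher and 5 lower in hippocampus, with medians of -0.16 and -0.046. The interaction was significant for 6, each more positive in hippocampus. Sipa1l1, an actin-linked partner of PSD-95, fell in cortex only (-0.60 ± 0.11 and -0.15 ± 0.080), as did Lzts3 (-0.74 ± 0.14 and -0.18 ± 0.082). Homer2 fell in both regions and more in cortex (-0.94 ± 0.094 and -0.44 ± 0.080), and Dlgap3, a scaffold that binds Shank proteins, rose in hippocampus only (0.36 ± 0.052, and -0.16 ± 0.073 in cortex). Without the mouse block, the interaction was not significant for Sipa1l1 (adjusted p = 0.102) and Lzts3 (adjusted p = 0.0791). The call was lost for Homer2 without KI replicates 1, 3 and 4 or WT replicate 4 (adjusted p up to 0.0565).

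Genes of the list for cortical layer identity were lower mainly in cortex. Of 24 layer identity genes, 4 were higher and 9 lower in cortex, 1 was higher and 3 lower in hippocampus, and each of the 7 with a significant interaction had the more negative effect in cortex. Fezf2, the master regulator of subcerebral projection neurons, fell in cortex only (-0.66 ± 0.10 and -0.0060 ± 0.063, adjusted p = 0.00510). Fam84b also fell in cortex only (-1.09 ± 0.14 and 0.18 ± 0.14). In WT mice the levels of Fezf2 overlapped between the regions (814 to 1064 in cortex and 961 to 1044 in hippocampus). Those of Fam84b were lower in WT cortex (289 to 354) than in WT hippocampus (561 to 742). Lamp5, of upper-layer neurons and neurogliaform interneurons, fell in both regions and more in cortex (-1.86 ± 0.25 and -0.61 ± 0.088). Among lists for hippocampal neurons, 5 of 15 dentate granule cell genes and 4 of 17 pyramidal cell genes had an interaction. Bok, a Bcl-2 family member, was higher in KI cortex only (1.26 ± 0.19 and -0.23 ± 0.16, adjusted p = 8.05e-04), and Pdzd2 lower in KI cortex only (-0.76 ± 0.16 and 0.17 ± 0.11). C1ql2, a secreted synaptic organizer of granule cells, rose in cortex from 9.17 to 37.6 in WT to 47.1 to 311 in KI mice (3.20 ± 0.58) and less in hippocampus (0.54 ± 0.090). Of 13 genes of immature neurons, 3 had an interaction. Dcx and Dpysl3, both regulators of the growing cytoskeleton, fell in cortex only (-0.86 ± 0.18 and -0.041 ± 0.069 for Dcx, -0.57 ± 0.10 and 0.049 ± 0.054 for Dpysl3). For Calb2, calretinin, the WT cortices split into 261 and 258 in replicates 1 and 2 and 1397 and 1465 in replicates 3 and 4, while the KI cortices lay at 166, 129.6, 145 and 107, so the size of its cortical effect depends on which WT mice are compared. The same 2 WT cortices were the highest for Dcx, which was at 1653, 1478, 2251 and 2635 in WT cortex, for Dpysl3, at 1051, 1110.2, 1402 and 1393, and for Dnah11, at 44.1 and 31.8 in replicates 1 and 2 and at 246 or more in replicates 3 and 4. Leaving out 1 mouse removed the call of Lamp5 without KI replicates 1 and 4 or WT replicates 1 and 4 (adjusted p up to 0.0606), Calb2 without KI replicate 4 (adjusted p up to 0.0589), C1ql2 in 6 of the 8 fits that left out 1 mouse (adjusted p up to 0.0796) and Dcx in 5 of the 8 fits that left out 1 mouse (adjusted p up to 0.0768).

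Glial genes were higher mainly in hippocampus. Of 24 genes of reactive astrocytes, 7 were higher and 1 lower in KI cortex (median 0.22), and 15 were higher and 0 lower in KI hippocampus (median 0.83). The interaction was significant for 8, of which 6 were more positive in hippocampus. S100a6 (chromosome 3, 90612882 to 90624181), a calcium-binding protein, was at 168, 162, 166 and 177 in WT and 415, 299, 395 and 368 in KI hippocampus, and at 316, 284, 270.1 and 281 in WT and 263, 238, 273 and 232 in KI cortex. All KI values lay above WT in hippocampus, and the cortical values overlapped (1.12 ± 0.11 and -0.19 ± 0.10, interaction adjusted p = 6.12e-04). Socs3, a feedback inhibitor of cytokine signalling, rose in hippocampus and fell in cortex (0.82 ± 0.20 and -1.29 ± 0.35, adjusted p = 0.0110). Nestin (Nes) and Aspg rose in both regions and more in cortex, Nes by 2.13 in cortex and 0.69 in hippocampus and Aspg by 2.52 and 1.31. Reactive astrocyte genes were thus not uniformly hippocampal. Among 16 homeostatic astrocyte genes, 2 were higher and 4 lower in cortex, 7 were higher and 0 lower in hippocampus, and Aqp4, the water channel of astrocyte endfeet, rose in hippocampus only (0.62 ± 0.074 and 0.13 ± 0.13 in cortex). The interaction adjusted p of Aqp4 was 0.00965, that of Nes 0.00467 and that of Aspg 0.00762. The interaction of Nes (adjusted p = 0.0667) and Aqp4 (adjusted p = 0.0974) was not significant without the block.

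The complement genes rose mainly in hippocampus. C1qa, C1qb and C1qc encode the chains of C1q, which starts the classical pathway, tags synapses and comes from microglia in the brain. C1qb (chromosome 4, 136880129 to 136886187) was at 1044, 976, 1000.5 and 963 in WT and 1856, 1731, 1281 and 1568 in KI hippocampus, and at 1167, 1098, 929 and 989 in WT and 1289.7, 1148, 1068 and 997 in KI cortex. C1qa was at 1018, 1008, 968 and 953 in WT and 1936, 1833, 1206 and 1560.5 in KI hippocampus, and C1qc at 943, 1001, 969 and 1057 and 1773, 1641, 1311 and 1678. For all 3 genes the hippocampal values separated, with KI replicate 3 the lowest KI mouse, and the cortical values overlapped. The effects in hippocampus were 0.70 ± 0.12, 0.68 ± 0.098 and 0.68 ± 0.087 for C1qa, C1qb and C1qc, and those in cortex were 0.14 ± 0.10, 0.11 ± 0.098 and 0.11 ± 0.088. The interaction adjusted p was 0.0192, 0.00894 and 0.00950. Of 16 complement genes, 1 was higher in cortex and 8 were higher in hippocampus, none being lower in limma's test in either region, and the medians were 0.11 and 0.39. C4b rose in both regions and more in hippocampus (1.06 ± 0.21 and 1.68 ± 0.14), with an interaction adjusted p of 0.0202, and its reads may be shared with its paralog C4a. Without the mouse block, the interaction was not significant for C1qa (adjusted p = 0.0745) and C4b (adjusted p = 0.240). The call was lost for C1qa without KI replicate 4 or WT replicate 1 (adjusted p up to 0.0608) and C4b without KI replicate 4 or WT replicates 1 and 3 (adjusted p up to 0.0623).

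Of 22 measured genes of activated microglia, 6 were higher and 1 lower in cortex, and 14 were higher and 1 lower in hippocampus, with medians of 0.26 and 0.56. The interaction was significant for 4, evenly split in direction. Tyrobp, a signalling adaptor of TREM2, rose in hippocampus only (0.65 ± 0.13, and -0.11 ± 0.12 in cortex), as did Apoe, the main lipid carrier of the brain (0.28 ± 0.085 and -0.12 ± 0.060). Spp1, osteopontin, rose in cortex only (0.84 ± 0.24 and -0.22 ± 0.26). Lgals3, galectin-3, was at 4.00, 4.13, 3.94 and 7.21 in WT and 92.0, 26.0, 54.9 and 52.5 in KI cortex, and at 35.9, 33.2, 43.0 and 45.1 in WT and 71.5, 57.1, 52.5 and 55.4 in KI hippocampus. Its WT level in cortex was very low, and it rose there, while the hippocampal effect was smaller and not called (3.20 ± 0.38 and 0.58 ± 0.18, adjusted p = 0.00318). Among 14 homeostatic microglia genes, 1 was higher in cortex and 5 in hippocampus, and Cx3cr1, the fractalkine receptor, rose in hippocampus only (0.36 ± 0.075, and -0.047 ± 0.063 in cortex) but overlaps 3 other genes on its strand. Of 16 MHC genes, 5 were higher in hippocampus and 1 was in cortex. In the fit without the block, the call was lost for Spp1 (adjusted p = 0.145). Leaving out 1 mouse removed the call of Apoe without KI replicate 4 or WT replicates 1, 2 and 4 (adjusted p up to 0.0705), Tyrobp in 5 of the 8 fits that left out 1 mouse (adjusted p up to 0.0847), Spp1 in 7 of the 8 fits that left out 1 mouse (adjusted p up to 0.0918) and Cx3cr1 in 7 of the 8 fits that left out 1 mouse (adjusted p up to 0.112).

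Myelin genes leaned in opposite directions, mostly below the threshold within each region. Of 16 myelin genes, 2 were lower in cortex and 2 higher in hippocampus, with medians of -0.25 and 0.27, and each of the 6 with a significant interaction was more positive in hippocampus. Cldn11, the claudin of myelin tight junctions, rose in hippocampus (0.34 ± 0.083, and -0.29 ± 0.13 in cortex), and Trf, transferrin, fell in cortex (-0.55 ± 0.18, and 0.22 ± 0.078 in hippocampus). Opalin and Cnp were called in neither region, with effects of -0.17 ± 0.28 and 0.45 ± 0.25 for Opalin and -0.32 ± 0.15 and 0.18 ± 0.11 for Cnp. The summed level of the 16 genes was 121822 to 183390 in WT and 99518 to 130966 in KI cortex, and 148029 to 180739 in WT and 162950 to 218170 in KI hippocampus, so the genotypes overlapped in both regions. The interaction of Opalin (adjusted p = 0.472) and Cnp (adjusted p = 0.180) was not significant without the block. Calls that depended on single mice were those of Cldn11 without KI replicates 1, 3 and 4 (adjusted p up to 0.0618), Trf in 5 of the 8 fits that left out 1 mouse (adjusted p up to 0.0694), Opalin in 6 of the 8 fits that left out 1 mouse (adjusted p up to 0.0782) and Cnp in 7 of the 8 fits that left out 1 mouse (adjusted p up to 0.0926). How much white matter each dissection held was not tested.

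Cholesterol synthesis was higher mainly in cortex at this age. Of 20 genes, 9 were higher in cortex and 1 in hippocampus, none being lower in limma's test, with medians of 0.33 and 0.13. Stard4, a cholesterol transfer protein, was at 1013, 1055, 1184 and 1065 in WT and 2591, 1302, 2051 and 1498 in KI cortex, and rose in cortex only (0.74 ± 0.18 and 0.084 ± 0.17, adjusted p = 0.00446). Without the mouse block, the interaction was not significant for Stard4 (adjusted p = 0.196). At PWK 14, in other mice, 16 genes of the list were higher in hippocampus and 0 in cortex in limma's test, against 7.64% and 2.48% of all genes, and 8 had an interaction that was more positive in hippocampus, against 2.32% of all genes.

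Among the remaining lists, many circadian genes were lower: of 18, 11 were lower and none was higher in cortex in limma's test, 7 were lower and 2 higher in hippocampus, and 3 had an interaction. Bhlhe40, a transcriptional repressor of the clock, fell more in cortex (-1.19 ± 0.078 and -0.34 ± 0.057, interaction adjusted p = 9.70e-04), and Per2 fell in cortex only (-0.58 ± 0.069 and -0.12 ± 0.080). Of 76 cytosolic ribosomal protein genes, 22 were lower in cortex and 4 in hippocampus, but only Rpl29 had an interaction. Of 61 axon guidance genes, 14 had one, evenly split in direction: Sema3f, a repellent of growing axons and spines, fell in cortex only (-1.42 ± 0.21 and -0.0079 ± 0.20), and its relative Sema4f fell in hippocampus only (-0.40 ± 0.053, and -0.010 ± 0.057 in cortex). The metal-binding metallothioneins Mt1 and Mt2 had interactions of the same sign, with Mt1 called in hippocampus only (0.36 ± 0.067, and -0.24 ± 0.12 in cortex) and Mt2 in cortex only (-0.62 ± 0.19, and 0.088 ± 0.10 in hippocampus), while Slc30a3, the vesicular zinc transporter of glutamatergic terminals, fell in cortex only (-0.66 ± 0.14 and -0.0013 ± 0.10). No member of the lists for interferon-stimulated genes, the unfolded protein and integrated stress response, glycine signalling or mitochondrially encoded genes had a significant interaction in limma's test. These lists held 19, 20, 8 and 13 tested genes. Since 6.84% of all genes had an interaction, a lack of calls in lists of this size lies near the share over all genes. Of the 13 mitochondrially encoded genes, 2 were higher in KI cortex and 10 in KI hippocampus. The share of normalized counts in mitochondrial genes was 7.44% to 8.32% in KI and 6.76% to 6.97% in WT hippocampus, without overlap, and 6.601% to 7.29% in KI and 5.96% to 7.42% in WT cortex. The part of this share in the hippocampal results was not tested. The absence of an interaction was also true of the marker lists for choroid plexus, ependyma, meninges and blood. These held 4 to 6 genes each, too few for a lack of calls to stand apart from the share over all genes. Blood genes were lower in KI mice, 5 of 5 in cortex and 2 of 5 in hippocampus, and whether blood content bears on the vascular and immune genes was not tested. In the fit without the block, the call was lost for Mt2 (adjusted p = 0.104) and Slc30a3 (adjusted p = 0.0581). Leaving out 1 mouse removed the call of Per2 without KI replicate 1 or WT replicates 2 and 4 (adjusted p up to 0.0595) and Rpl29 in 7 of the 8 fits that left out 1 mouse (adjusted p up to 0.0926).

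**Figure D3:**
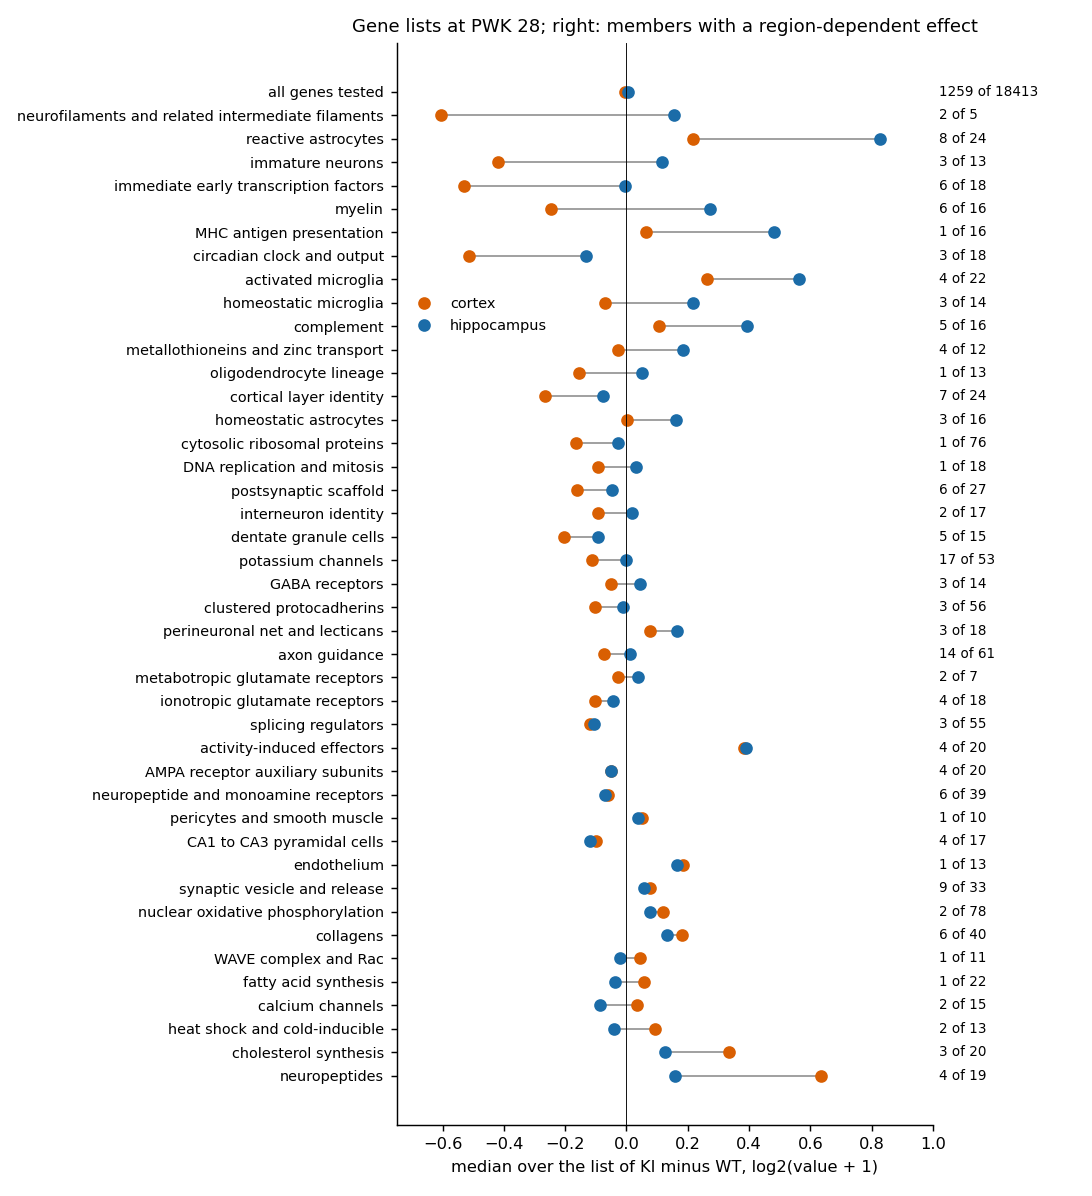
Median KI effect (log2) at PWK 28 of each gene list in cortex (orange) and hippocampus (blue); the numbers at the right give the members with a significant interaction and the members tested. Reactive astrocytes have medians of 0.22 and 0.83, complement 0.11 and 0.39, myelin -0.25 and 0.27, and cholesterol synthesis 0.33 and 0.13, in cortex and hippocampus.

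Of the 152 genes chosen by the rule, 80 kept a significant interaction in each of the 14 alternatives run on single genes. Among them were Nefm, Synpo, Plk5, Card10, Penk, Drd1, S100a6, C1qb, Stard8, Stc2, Sst, Cck, Vip, Npy1r and Cyfip2.

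The PWK 28 classes were looked up at PWK 14, when the same 2 regions had been sampled in 4 other KI and 4 other WT mice. At that age 724 of 18424 genes had a significant interaction (3.93%). Among the hippocampus-only genes of PWK 28, 42 of 182 (23.1%) had one, among the opposite genes 16 of 56 (28.6%), and among the cortex-only genes 44 of 552 (7.97%). The interaction had the sign of PWK 28 in 94.0% of the hippocampus-only, 96.4% of the opposite and 76.4% of the cortex-only genes, against 56.9% of all genes. Its median over the genes higher in hippocampus only was 0.62 at both ages, whereas over the genes higher in cortex only it was -0.56 at PWK 28 and -0.17 at PWK 14, and over those lower in cortex only 0.59 and 0.21. The larger values at PWK 28 are partly a matter of choice, since the classes were selected at that age.

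Named genes differed within the classes. The interaction of Penk was 3.12 at PWK 14 (adjusted p = 0.0166), that of Drd1 1.88 (adjusted p = 0.0178), that of Nefm 0.99 (adjusted p = 0.00351) and that of Stard8 0.89 (adjusted p = 0.00787). Card10, a cortex-only gene, was also significant at -1.04 (adjusted p = 0.0299). The interaction did not pass for Plk5, at 1.11 (adjusted p = 0.202), which at PWK 14 was lower in both regions (-1.95 in cortex and -0.83 in hippocampus). It did not pass for Sst (-0.27, adjusted p = 0.347), Npy1r (0.43, adjusted p = 0.104), S100a6 (2.09, adjusted p = 0.0773) or Cyfip2 (0.12, adjusted p = 0.638). S100a6 was at 170.0, 158, 157 and 98.2 in WT and 2279, 316, 323 and 339.6 in KI hippocampus at PWK 14, so that the genotypes separated and KI replicate 1 stood far above the other KI mice. The same library was the highest for C1qa, at 6047, 1189, 1207 and 1941 in KI and 978, 890.2, 862 and 969.7 in WT hippocampus. The interaction did not pass for C1qa (1.11, adjusted p = 0.155), C1qb (0.98, adjusted p = 0.184) or C1qc (0.90, adjusted p = 0.244), nor for the opposite genes Cck (-0.59, adjusted p = 0.149) and Calb2 (1.89, adjusted p = 0.0915). For Npy1r both regions were lower at PWK 14, by -0.86 and -0.43 in cortex and hippocampus.

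Whether the regional difference itself had changed between the ages was tested in the 32 libraries of PWK 14 and PWK 28. No gene of 18428 passed limma's test (0.00%), with 2377 at an unadjusted p under 0.05, and with the mouse as a block 228 passed, with 3033 at an unadjusted p under 0.05. Without KI replicate 2 of PWK 28, 195 passed in the fit without the block. Since the 2 fits differ in their calls, class membership at one age and not at the other was not read as a change with age.

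**Figure D4:**
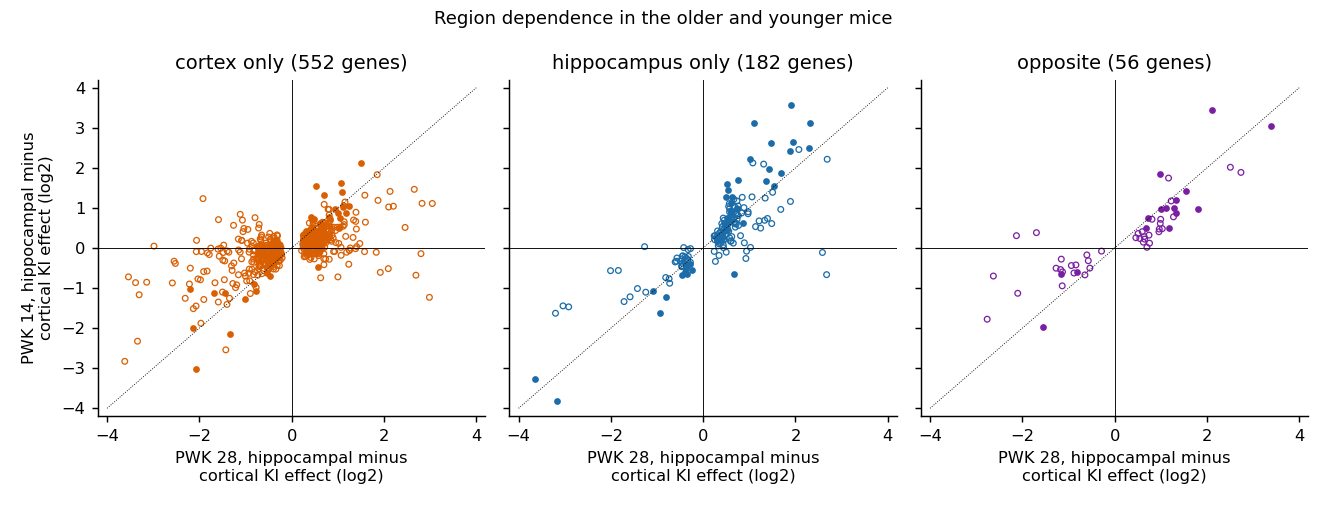
Interaction (KI effect in hippocampus minus that in cortex, log2) at PWK 28 (horizontal axis) and in other mice at PWK 14 (vertical axis) for the hippocampus-only, opposite and cortex-only genes of PWK 28, filled points being significant at PWK 14. Hippocampus-only and opposite genes have the same sign at both ages in 94.0% and 96.4% of cases and cortex-only genes in 76.4%, and 8 genes fall outside the axes.

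The classes were also compared with the normal regional expression of their genes, taken from the 4 WT mice of PWK 7, which enter no comparison above. At PWK 7, 3563 of 18411 genes were higher in WT hippocampus (19.4%) and 3506 were higher in WT cortex (19.0%). Of the genes higher in KI hippocampus only, 46.3% were normally higher in cortex and 11.2% higher in hippocampus. Of those lower in KI hippocampus only, 58.3% were normally higher in hippocampus and 12.5% higher in cortex. Of the opposite genes, 65.7% of those lower in cortex and higher in hippocampus were normally higher in cortex and 20% in hippocampus, and of those changed the other way 57.1% were normally higher in hippocampus and 23.8% in cortex. Of the genes lower in KI cortex only, 40.5% were normally higher in cortex and 26.2% in hippocampus, and of those higher in KI cortex only, 32.7% were normally higher in hippocampus and 25.0% in cortex. In these classes the KI effects thus more often reduced than widened the normal difference between the regions. Penk (hippocampus minus cortex -1.14 in WT mice at PWK 7), Drd1 (-1.29), S100a6 (-0.73) and Stard8 (-2.11) are cases of genes normally higher in cortex that rose in KI hippocampus. Card10 (0.54) was normally higher in hippocampus and rose in KI cortex.

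**Figure D5:**
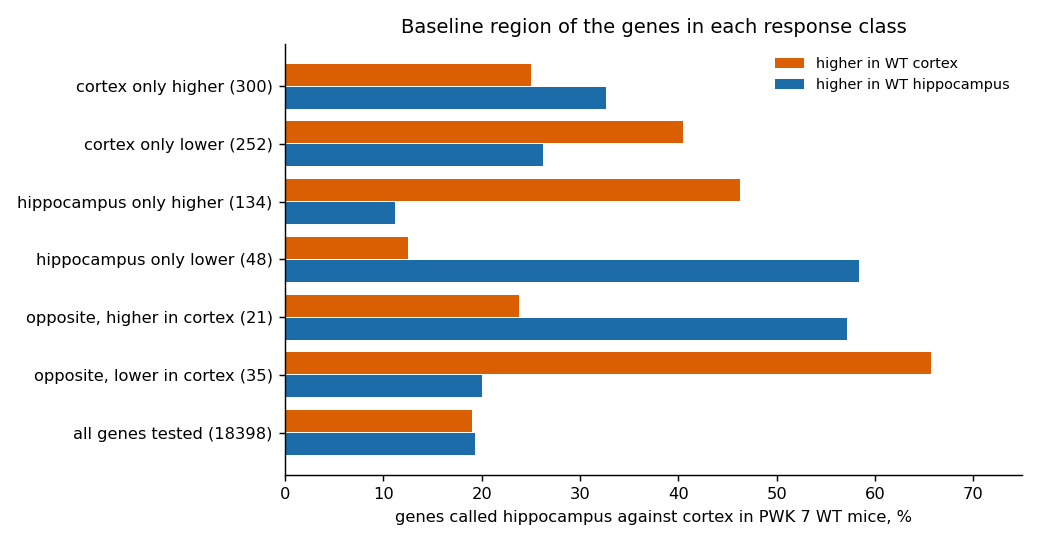
Percent of the genes of each PWK 28 response class that were higher in cortex or higher in hippocampus of WT mice at PWK 7, beside all genes tested. Genes higher in KI hippocampus only were normally higher in cortex in 46.3% and in hippocampus in 11.2% of cases, and genes lower in KI hippocampus only in 12.5% and 58.3%.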

How the data were processed

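Frontal cortex and hippocampus were measured by bulk RNA-seq (TruSeq stranded libraries). Per the labels, the authors quantified reads with Salmon 0.11.2 on GRCm38 and normalized them with DESeq2 1.19.11 in R 3.6.0. The deposited values are this signal, normalized read counts that need not be whole, and only 31.0% to 44.3% of the low values of a library lay within 0.1 of a whole number, so whole reads were not recovered and depth is unknown. Values were tested with limma-trend (limma 3.58.1, R 4.3.3) on log2(value + 1), which understates changes of weakly expressed genes, for genes with a mean of at least 1, at a Benjamini-Hochberg adjusted p of 0.05. The interaction model held mouse, region and region by genotype, and each region was also fitted alone (8 libraries). The age test had no block. Equal replicate numbers of a genotype were assumed to mark 1 mouse, which no source used here states. Same-numbered libraries deviated together over 12771 genes in KI mice (r of 0.45, 0.26, 0.25 and 0.45) but not in WT mice (-0.068 to 0.015). Differently numbered libraries of KI mice had r of -0.35 to 0.24. Named genes were protein-coding, listed at 0 in no library, at least 50 normalized counts in 1 group and free of overlap in the responding region: the 6 with the largest interaction per class, the 6 with the smallest p, Cyfip2, and up to 4 per list by interaction p. Genes in a list needed only the interaction. Some items are not reported here. Members and lists were chosen with earlier results of these data known. GENCODE M21 matched 18420 of 18432 gene IDs. Alternatives covered the block, pseudocount, filter, scaling, GC content and length, pooled and weighted fits, and leaving out each mouse. The procedure was tested on simulated data.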

Additional observations from a re-analysis of the deposited data

Results flagged for a closer look

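Differences of the KI effect between the regions were found by the interaction test for 1259 genes at PWK 28 and 724 genes at PWK 14, and 56 genes changed in opposite directions at PWK 28. Of the 36 genes described by class, by p or as the edited gene, those with a KI effect more positive in hippocampus had an interaction (log2) of Plk5 3.05, Dnah11 2.83, Nlrp6 2.66, Igfn1 2.51, Penk 2.32, Lemd1 2.29, Klk6 2.07, Cacna2d4 1.94, Ccn4 1.89, Drd1 1.69, Rnd1 1.597, Cdkn1c 1.59, Six4 1.58, Necab3 1.54, Mapk4 1.33, Stard8 1.33, Nefm 1.28, H2-T23 1.28, Tmem198 0.85, Synpo 0.78, Tsnax 0.70 and Cyfip2 0.40. Those with an effect more positive in cortex had an interaction of Tnmd -3.62, Fgr -3.54, Acaa1b -3.34, Cldn22 -2.89, Stc2 -2.63, Fam92b -2.52, Card10 -2.20, Mafa -2.13, Trim71 -2.13, Frem3 -2.01, Mndal -1.84, Il20rb -1.71, Cyp26b1 -1.70 and Npbwr1 -1.42. Single mice far from the rest of their group were sought in 176 groups of 4 with Dixon's criterion, and 10 were found, where chance alone gives about 1 in 20 groups. In WT hippocampus they were Cacna2d4 in replicate 3 (18.9 normalized counts), Cldn22 in replicate 1 (34.1), Dnah11 in replicate 2 (73.0), Fgr in replicate 1 (4.80) and Trim71 in replicate 3 (68.3). In KI hippocampus it was H2-T23 in replicate 1 (410.0). In cortex they were Mapk4 in WT replicate 2 (2437), Plk5 in KI replicate 2 (103), the 6 summed cortical markers in WT replicate 1 (17528) and the summed choroid plexus markers in WT replicate 2 (21740).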

How the results depend on the processing

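None of the 152 chosen genes reversed its interaction. They were chosen for a significant interaction in these same libraries, so a reversal was unlikely from the start. The majority direction of some counts did turn. The share of called interactions more positive in hippocampus was 51.6%, against 46.3% with the GC content and length correction and 46.7% with all 64 libraries in one fit, and it was 59.0% at PWK 14 against 49.4% under total-sum scaling. The share of higher genes called in hippocampus was 47.1% with the GC content and length correction, and that of cortex-only genes 48.9% under upper-quartile scaling against 54.3%. Leaving out 1 mouse at a time gave 652 to 1874 genes with an interaction at PWK 28, 2782 to 5090 called in cortex and 1881 to 2880 in hippocampus. It gave 291 to 876 cortex-only, 91 to 205 hippocampus-only and 23 to 74 opposite genes, 211 to 1129 genes with an interaction at PWK 14, and 0 to 195 for the difference between the ages. The lowest count came without WT replicate 4 for cortex, without KI replicate 4 for cortex-only genes and without WT replicate 1 for the others but the difference between the ages, and the highest at PWK 28 without KI replicate 2. Requiring the interval of the other region to lie within ±0.32 (log2) left 346 cortex-only and 71 hippocampus-only genes. Without the replicate block, 841 genes had an interaction at PWK 28 (792 of them among the 1259) and 525 at PWK 14, and 377, 129 and 56 genes were cortex-only, hippocampus-only and opposite. With the replicate block, 228 genes differed between the ages. Of the 152 chosen genes, 45 lost the call without the block, 5 with the GC content and length correction, 1 with each other pseudocount, 2 with each other scaling, and 5 to 44 without 1 mouse. Scalings moved the median of all genes by less than 0.1. Counting error could not be separated from the spread between mice, since the deposited values keep no depth, and with 4 mice per group smaller effects stay undetected.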

Other observations

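Some list members with a significant interaction are not described above. Of 40 collagens, 6 had one, evenly split in direction, against 6.84% of all genes. Col11a1 was higher in KI cortex only (1.08 ± 0.22 and -0.18 ± 0.13 in hippocampus) and Col5a3 was higher in both regions and more in cortex (2.52 ± 0.42 and 0.92 ± 0.13), whereas Col16a1 was lower in KI cortex only (-0.53 ± 0.096 and 0.0065 ± 0.13) and Col4a5 was higher in KI hippocampus (0.53 ± 0.15, and -0.41 ± 0.15 in cortex). Adamts1, a protease that cuts lecticans of the extracellular matrix, was higher in KI cortex only (1.27 ± 0.28 and 0.20 ± 0.15). Tagln, an actin-binding protein of smooth muscle, was higher in both regions and more in cortex (3.31 ± 0.49 and 0.79 ± 0.22), and Itm2a, an endothelial membrane protein, was higher in KI cortex only (0.95 ± 0.18 and 0.27 ± 0.12). Mcm6, a subunit of the replicative helicase, was higher in KI cortex only (1.36 ± 0.20 and -0.097 ± 0.10). No other member of its list of 18 genes had an interaction, against 6.84% of all genes. Kit, a receptor tyrosine kinase of interneurons, was lower in both regions and more in cortex (-0.91 ± 0.11 and -0.26 ± 0.060). The interaction of Col5a3 (adjusted p = 0.0741), Col16a1 (adjusted p = 0.0926), Adamts1 (adjusted p = 0.0946) and Itm2a (adjusted p = 0.121) was not significant without the block. Calls that depended on single mice were those of Col4a5 without WT replicate 2 (adjusted p up to 0.0519).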
